A study of Mus musculus with 12 samples.

Results

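IL-1R1-deficient glia are cultured glial cells of mice that lack the type 1 interleukin-1 receptor, and the comparison described here is between such cells given IL-1β and such cells given vehicle. It rests on 4 of the 12 arrays of the series, the IL-1β and vehicle arrays of replicates 1 and 2, chosen by their titles and paired by their replicate number. The cells were primary mixed glial cells of genotype IL-1R1-/-, kept for 10 to 12 days after isolation and then exposed for 4 hours to 10 ng/ml rrIL-1β (one label has IL-1β without the prefix) or to vehicle. A further 6 arrays of wild-type cells, in 3 pairs with the same dose and time, served for comparison and for the estimate of the spread. The labels give no strain, sex, age, number of animals per culture, or deleted part of Il1r1. The design text calls the replicates independent and biological.

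IL-1R1 binds IL-1β together with its accessory protein, and the pair recruits the adaptor MyD88, IRAK kinases and TRAF6. These activate IκB kinase and the stress-activated MAP kinases, so that NF-κB enters the nucleus and switches on cytokines, chemokines, acute phase genes and its own inhibitor. In the brain, astrocytes and microglia are both targets and sources of IL-1. A comparison in receptor-deficient cells asks what IL-1β, or anything that came with it, does without this receptor.

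No gene passed the test in these cells. Of 8734 probes on the array 7904 had a value on all 4 arrays, and limma called 0 of them (0%) at an adjusted p under 0.05, with 10 arrays giving the spread of each probe. The smallest adjusted p was 0.611, and 583 probes (7.38%) had an unadjusted p under 0.05, 226 higher (2.86%) and 357 lower (4.52%) with IL-1β. In wild-type glia the same fit called 353 of the 5713 probes measured on all 10 arrays (6.18%), 260 higher (4.55%) and 93 lower (1.63%), but 27 (0.473%) once the trend of the values with probe position, described further on, was removed. The precision was limited: the median standard error of a log2 difference was 0.226. Its unadjusted 95% interval reached 0.496 to either side at the median. A call over all 7904 probes needed more than that, since Slc44a1, at -1.32, had an adjusted p of 0.611 (limma). The 2 pairs alone could not decide such a question by an exact test, since sign flips of 2 pairs give a two-sided p of 0.5 at the least, and regrouping 2 against 2 arrays 0.333.

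The count of 0 depended on the settings of the fit, and which part of a setting changed it was not tested. When the 4 arrays were normalized and fitted alone, with 1 residual degree of freedom, limma called 336 probes (4.25%), 132 higher (1.67%) and 204 lower (2.58%). The moderated spread of the median probe in that fit, 0.209, equalled its prior SD, so all probes had 1 common spread. Calls of that fit therefore went by the size of the difference and not by each probe's own spread. Of these 336, 147 lay among the 791 brightest probes, where the pairs scattered most (SD 0.566 and 0.471, against 0.302 and 0.262 among the 791 dimmest). The count was 0 when that position trend was removed, with a smallest adjusted p of 0.0605. Without wild-type replicate 2 the fit that shares the spread called 124 probes (41 higher, 83 lower), and 0 with the trend removed. With median centring in place of quantile normalization it called 202 (3 higher, 199 lower), and 22 with the trend removed as well.

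A value in these data is the log2 of a spot's intensity after quantile normalization between arrays, and a difference is IL-1β minus vehicle within a pair. Probes of different genes hybridise differently, so levels of different probes do not rank transcripts. Before normalization the median intensity was 33780.1 (IL-1β) and 32303.3 (vehicle) in pair 1, and 60399 and 58787.8 in pair 2. The lowest intensity of any array of the series was 0.225 to 0.368 of that array's median. Fold changes of dim probes may hold background, which was not tested.

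Copied columns limit pair 1 and wild-type pair 1. The vehicle array of replicate 1 equals the IL-1β array of replicate 3 times 1.67 at 6531 of the 6584 probes they share (tolerance 0.0001 on the log2 scale), although their labels name different treatments. Of the values in that IL-1β column 139 have no counterpart in the vehicle column. The vehicle array of replicate 3 equals wild-type vehicle array 1 times 1.12 at 5959 of 5982 shared probes, although their labels name different genotypes. The next closest pair of columns agreed in this way at 0.0857% of their probes. Both replicate 3 columns were left out. Which label of either copy is right cannot be told from the files, so wild-type pair 1 also rests on a column in doubt. Without that pair the test of the difference between genotypes, described further on, passed for 3 probes in place of 9. Pair 1 of the IL-1R1-/- cells is "the pair labelled 1", and the value of pair 2 is the value without it. It is given for the responders, the genes named by rule and the list members with an unadjusted p under 0.05; other means rest on both pairs.

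The receptor's own transcript was measured by 1 probe. Il1r1 read 13.88 (vehicle) and 13.96 (IL-1β) in pair 1, and 14.07 and 14.15 in pair 2. Its log2 difference was 0.08 ± 0.22 (SE, 2 pairs), with a 95% interval from -0.40 to 0.56. With all 10 arrays normalized together it lay between 13.86 and 14.17 in the IL-1R1-/- arrays and between 13.73 and 14.06 in wild-type vehicle arrays, so the genotypes overlapped at this probe. The sources used here do not say whether the probe lies inside the deleted part, so this checks no label.

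The 11 genes that responded to IL-1β in the wild-type arrays show most directly what differed between the genotypes, and they were taken from earlier results of those arrays, so their wild-type values and the tests of the difference are not independent of the choice. Their values in IL-1R1-/- cells played no part in it. Most of them are known NF-κB or interferon targets, so the 250 bases before each gene's start were searched on both strands for the NF-κB consensus. Promoters of 10 of the 11 genes were found in RefSeq (GRCm38.p6), Slc38a1 being the exception. The consensus was present in the promoters of 3 of these genes, and in 2382 of all 32851 promoters of this length (7.25%). The 3 are printed 5′ to 3′ on the strand of the gene, with the matching letters in capitals, because these genes are both responders in wild-type glia and carriers of the motif.
Nfkbia, chr12:55492648-55492897, minus strand: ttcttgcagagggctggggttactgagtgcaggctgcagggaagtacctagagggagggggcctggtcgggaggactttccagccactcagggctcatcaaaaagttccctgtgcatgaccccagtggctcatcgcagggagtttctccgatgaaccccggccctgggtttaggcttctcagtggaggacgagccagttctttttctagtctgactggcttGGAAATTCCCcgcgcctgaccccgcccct
Tnfaip2, chr12:111442411-111442660, plus strand: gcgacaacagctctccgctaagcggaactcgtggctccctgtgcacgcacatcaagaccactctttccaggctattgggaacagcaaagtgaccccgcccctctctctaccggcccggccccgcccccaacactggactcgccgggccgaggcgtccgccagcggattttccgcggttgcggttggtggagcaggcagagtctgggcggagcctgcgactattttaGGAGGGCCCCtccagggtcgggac
Steap4, chr5:7960222-7960471, plus strand: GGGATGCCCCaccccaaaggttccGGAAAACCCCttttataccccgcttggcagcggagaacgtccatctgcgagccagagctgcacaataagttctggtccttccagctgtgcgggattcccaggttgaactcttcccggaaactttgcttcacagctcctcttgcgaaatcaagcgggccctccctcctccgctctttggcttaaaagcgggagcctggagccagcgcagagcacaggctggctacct
The match begins 29 bases before the start of Nfkbia and 24 bases before that of Tnfaip2. Steap4 has one 250 bases and one 226 bases before its start. A match is a description of the letters and not of binding, and the lack of one says nothing about the factor.

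The gap between the genotypes passed the test at 8 of the 14 probes of the 11 responders (adjusted p 0.00593 to 0.357, limma). In all 14 the 95% interval of the IL-1R1-/- difference excluded the wild-type mean. That count was favoured by the choice of genes on their wild-type values. Over all 5713 probes the interval excluded the wild-type value in 1434. The IL-1R1-/- interval held 0 in 13 of the 14 responder probes, and in 8 of the 14 the 2 pairs had opposite signs. Differences ran from -0.82 to 0.30, and the adjusted p from 0.611 to 0.999. IL-1R1-/- values are from the 7904 probes measured on these 4 arrays, and wild-type values and differences between genotypes from the 5713 measured on all 10.

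Secreted and acute phase products come first. Ptx3, a soluble pattern recognition protein, read 14.38 and 14.46 in pair 1 and 14.68 and 14.54 in pair 2, vehicle first. The 4 arrays lay within a narrow band, and the treated arrays fell between the vehicle arrays. Its log2 difference was -0.03 ± 0.45 (SE, 2 pairs; 95% interval -1.01 to 0.95), against 4.71, 2.45 and 2.33 in the wild-type pairs, a gap of 3.17 (adjusted p 0.0332, limma). Lcn2, the siderophore-binding protein lipocalin 2, read 14.00 and 14.14 in pair 1 and 14.17 and 14.29 in pair 2. The difference was small and of one sign in both pairs, 0.13 ± 0.29, with pair 2 at 0.12. Wild-type pairs gave 2.31, 3.48 and 2.89, and the gap of 2.75 passed (adjusted p 0.00593).

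Ccl12, a chemokine that draws monocytes, has 2 probes. At the first (probe 5112) the levels were 14.88 (vehicle) and 14.04 (IL-1β) in pair 1 and 14.88 and 14.73 in pair 2. The treated arrays were the lower ones in both pairs, by far more in pair 1, and the mean difference was -0.49 ± 0.33 (interval -1.21 to 0.22). The second probe (8138) showed no common direction, with 0.15 in pair 1, -0.23 in pair 2 and a mean of -0.04. The gaps to wild-type glia were 2.98 (adjusted p 0.00683) and 2.27 (0.0349).

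The 3 genes whose promoters are printed above were all raised in wild-type glia. Nfkbia encodes IκBα, the inhibitor that NF-κB induces to restrain itself. At its brighter probe it read 14.83 and 15.20 in pair 1 and 15.32 and 15.03 in pair 2, higher with IL-1β in the first and lower in the second, with a mean of 0.04 ± 0.25. Its other probe was lower in both, by -0.43 and -0.29, and the gaps to wild-type glia were 1.72 (adjusted p 0.0423) and 1.90 (0.0315). Steap4, a metalloreductase, read 14.51 and 14.84, then 15.05 and 14.78, again with opposite signs. Its mean was 0.03 ± 0.26, and the gap to wild-type glia was 2.25 (adjusted p 0.00798).

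Tnfaip2, a TNF-induced gene of the exocyst-like family, was the exception among the responders. It read 15.38 with vehicle and 14.76 with IL-1β in pair 1, and 15.46 and 14.45 in pair 2. Both vehicle arrays lay above both treated arrays, the reverse of wild-type glia, where the pairs differed by 1.70, 1.03 and 1.35. The mean difference was -0.82 ± 0.24 with an interval from -1.33 to -0.30, which excludes 0, but over all 7904 probes it did not pass (adjusted p 0.611). It passed with the 4 arrays fitted alone (-0.90, adjusted p 0.00178, limma), a fit with 1 spread for all probes. It also passed under median centring (-1.10, adjusted p 0.0253) and without wild-type replicate 2 (-0.86, adjusted p 0.0275). It did not pass with the 4 arrays alone and the trend removed (adjusted p 0.109). Below vehicle on both pairs, without overlap, lay 18.7% of all probes. It stood at -0.53 with the position trend removed. The gap to wild-type glia was 2.15 (adjusted p 0.00798).

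The remaining responders had differences between -0.14 and 0.30. Among interferon-inducible GTPases, Gbp3 had a difference of 0.17 ± 0.29 (0.45 in pair 2). Gbp7 had 0.15 ± 0.25 and 0.01 ± 0.21 at its 2 probes (0.17 and 0.10 in pair 2). Osmr, the oncostatin M receptor subunit, had -0.14 ± 0.23 (-0.31 in pair 2). Of the 2 genes lowered in wild-type glia, Id4, which binds and blocks basic helix-loop-helix proteins, had -0.04 ± 0.23, or 0.28 in pair 2, and Slc38a1, a glutamine transporter, 0.30 ± 0.22, or 0.07 in pair 2. For these 6 probes the gap to wild-type glia did not pass (adjusted p 0.0642 to 0.357, limma).

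**Figure D1:**
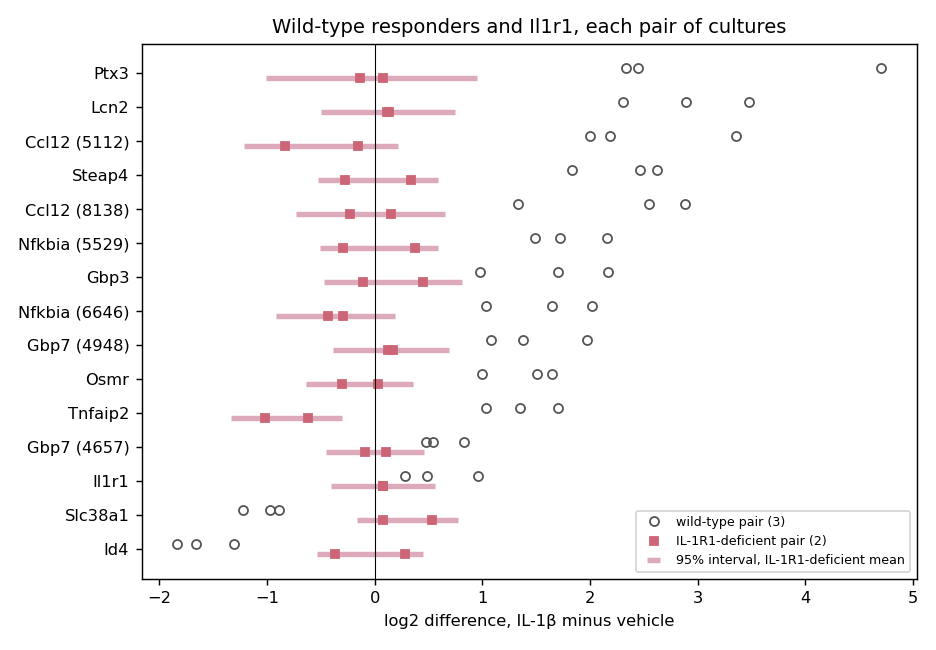
Log2 difference, IL-1β minus vehicle, for the 14 probes of the 11 wild-type responders and for Il1r1. Open circles are the 3 wild-type pairs, squares the 2 IL-1R1-/- pairs and bars the 95% interval of the IL-1R1-/- mean; numbers in brackets are probe numbers. Squares lie between -1.02 (Tnfaip2, pair 2) and 0.54 (Slc38a1, pair 1), and only those of Tnfaip2 have an interval that leaves out 0. No square reaches the circles of its own row. The responders were chosen on their wild-type values, and the share of all probes with such separation was not counted.

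Over the whole array the genotypes were set against each other by the interaction term, which passed for 9 of 5713 probes (0.158%), all with the higher response in wild-type glia. Of the 9, 8 belong to Ptx3, Lcn2, Ccl12, Steap4, Nfkbia and Tnfaip2. The other is probe 4650, which has no single gene symbol, with -0.59 and -0.37 in the IL-1R1-/- pairs and a gap of 1.87. Unadjusted, 804 probes (14.1%) had a p under 0.05. With the position trend removed the same 9 passed. Without IL-1R1-deficient pair 1 the number was 7, of which 6 are among the 9; both Nfkbia probes and probe 4650 were lost. Without IL-1R1-deficient pair 2 it was 2, Lcn2 and Ccl12 probe 5112. Without wild-type pair 1 it was 3, the same probes and Ptx3, and without wild-type pair 2 it was 16. Without wild-type pair 3 it was 10, with Nfkbia probe 5529 and Ccl12 probe 8138 lost. Without the culture block, and with no moderation of the spread, it was 0.

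The probes called in wild-type glia had mixed values in the receptor-deficient cells. Of the 260 called higher there, 183 (70.4%) were also higher here, with a median of 0.18 against 0.80 in wild-type glia. In 180 the interval excluded the wild-type value, as it did in 1434 of all 5713 probes. The 260 were chosen for their wild-type values, and the interval takes those values as fixed, so the 180 is no test. The interaction term passed for 9 of the 260. In the fit of 7904 probes the median of the same 260 was 0.15, and 0.0314 with the position trend removed. Unadjusted, 29 of the 260 (11.2%) had a p under 0.05, beside 7.60% of all 5713 probes. Of the 93 called lower there, only 23 (24.7%) were lower here, and their median was 0.16 too. The median of either set was above 0 in these cells, and the median of all 5713 probes was 0.01. With the position trend removed, 27 probes were called in wild-type glia, 11 of them had the same direction here and the median was -0.02. Across the 5713 probes the mean differences of the genotypes correlated at r = 0.0154 (0.0341 with the trend removed), a description across probes that share arrays and position.

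The genes with the smallest p in the receptor-deficient cells are named by rule, 12 per direction with the same sign in both pairs, and 0 of the 24 passed (adjusted p 0.611 for each, unadjusted 0.000368 to 0.00329). For all 24 the adjusted p was under 0.05 when the 4 arrays were fitted alone, with 1 spread for all probes. With the position trend also removed this held for 0 of 24. All 24 kept their sign with the trend removed, at -1.14 to 0.82. In 19 of them the treated and vehicle levels did not overlap, as was true of 17.2% of all probes upward and 18.7% downward. The rule chose the 24 by p and sign on these same 4 arrays. This favours the count of 19 and the calls with the 4 arrays alone, so neither is a test of these genes. Of the 12 higher probes 2 had a value on all 10 arrays, and of the 12 lower ones 11.

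Among the higher ones, Ado, which encodes a thiol dioxygenase, had the highest mean difference, 1.10 ± 0.26. It read 14.20 and 14.82 in pair 1 and 14.40 and 15.97 in pair 2, so most of the difference lay in pair 2. Ado is one of the 2 higher genes also measured in all wild-type pairs, where it was 0.60, 1.15 and 0.55. In wild-type glia it was called, in the same direction (mean 0.77, adjusted p 0.0479, limma). The gap between genotypes was -0.35 (adjusted p 0.680, limma). With the position trend removed its mean was 0.72 in IL-1R1-/- and 0.09 in wild-type glia (adjusted p 0.529 and 0.884, limma). Smarca2, an ATPase of the SWI/SNF chromatin remodelling complex, read 17.84 and 19.01, then 17.10 and 17.98. Culture 1 was the brighter one with either treatment, yet both treated arrays lay above both vehicle arrays, and the mean difference was 1.03 ± 0.22. Pon2, a paraoxonase, had equal vehicle levels, 17.36 and 17.36, and treated levels of 18.49 and 18.25, a mean of 1.00 ± 0.25.

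In brackets from here on are the mean and then pair 2 alone. Klhl14 (1.04, 1.44) and Wdr3 (0.95, 1.37), a nucleolar protein of ribosome assembly, resembled Ado in that pair 2 held most of the difference. Klhl14 read 13.55 and 14.18, then 13.98 and 15.43. The rest were Vipr2, a receptor for vasoactive intestinal peptide (0.94, 0.88), Dctd, deoxycytidylate deaminase (0.88, 0.92), Mbnl1, a splicing regulator (0.86, 0.88), Ptpra, a receptor tyrosine phosphatase (0.75, 0.81), Ly6g6c (0.97, 1.17), 1700099I09Rik (0.99, 1.25) and D1Ertd471e (0.85, 1.15). The second probes of Mbnl1 and Ptpra gave 0.19 and 0.15.

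The lower ones began with Slc44a1, a choline transporter, at -1.32 ± 0.27. It read 19.52 with vehicle and 17.69 with IL-1β in pair 1, and 19.87 and 19.06 in pair 2. The difference was -1.83 in pair 1 and -0.81 in pair 2, and both vehicle arrays lay above both treated arrays. Ola1, an ATPase of the Obg family, read 19.06 and 17.79, then 20.03 and 19.09, a mean of -1.11 ± 0.23, and its second probe gave -0.42. Its wild-type pairs were 0.43, -0.22 and -0.20.

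Tmprss6, a membrane serine protease that restrains hepcidin in liver, had the most even pairs, -1.17 and -1.18. It read 16.11 and 14.94, then 16.06 and 14.88, and its vehicle levels stood clear of its treated ones. Only one other probe was below -1 in both pairs, that of Ifrg15, at -1.06 and -1.07; it lies outside the naming rule and was chosen after its values were seen. These are the 2 probes (0.0253%) past -1 in both pairs, and 0 were past 1 upward. At 0.5, 82 probes (1.04%) were past it upward in both pairs and 143 (1.81%) downward, and with the trend removed 29 (0.367%) and 53 (0.671%).

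Pyy, the gut peptide YY (-1.17, -0.94), Lama4, a laminin chain (-1.02, -0.87), Etfa, which passes electrons from fatty acid oxidation (-0.84, -0.66), and Mrps5, a mitochondrial ribosomal protein (-0.85, -0.99), were the others with 1 probe. Tmcc1 (-0.89, -0.94) had -0.40 at its second probe, Hoxc5, a homeobox factor (-1.02, -0.71), -0.23, and 2610318N02Rik (-1.08, -1.57) -0.18. Tenm4, a teneurin (-0.93, -0.74), had -0.06 at its second probe, so that one held little of it. Agxt2, an aminotransferase (-1.01, -0.77), had 0.46 at its other probe, the opposite direction. Over the 8 named genes with another probe, 7 had the same sign there and 0 an unadjusted p under 0.05. With the trend removed the other probes of Ptpra (-0.02), 2610318N02Rik (0.05), Tenm4 (0.10) and Agxt2 (0.46) had the opposite sign. Those of Ola1, Tmcc1, Hoxc5 and Mbnl1 kept the same one. Among 101 genes whose brightest probe had an unadjusted p under 0.05, the second probe shared its sign in 48.

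**Figure D2:**
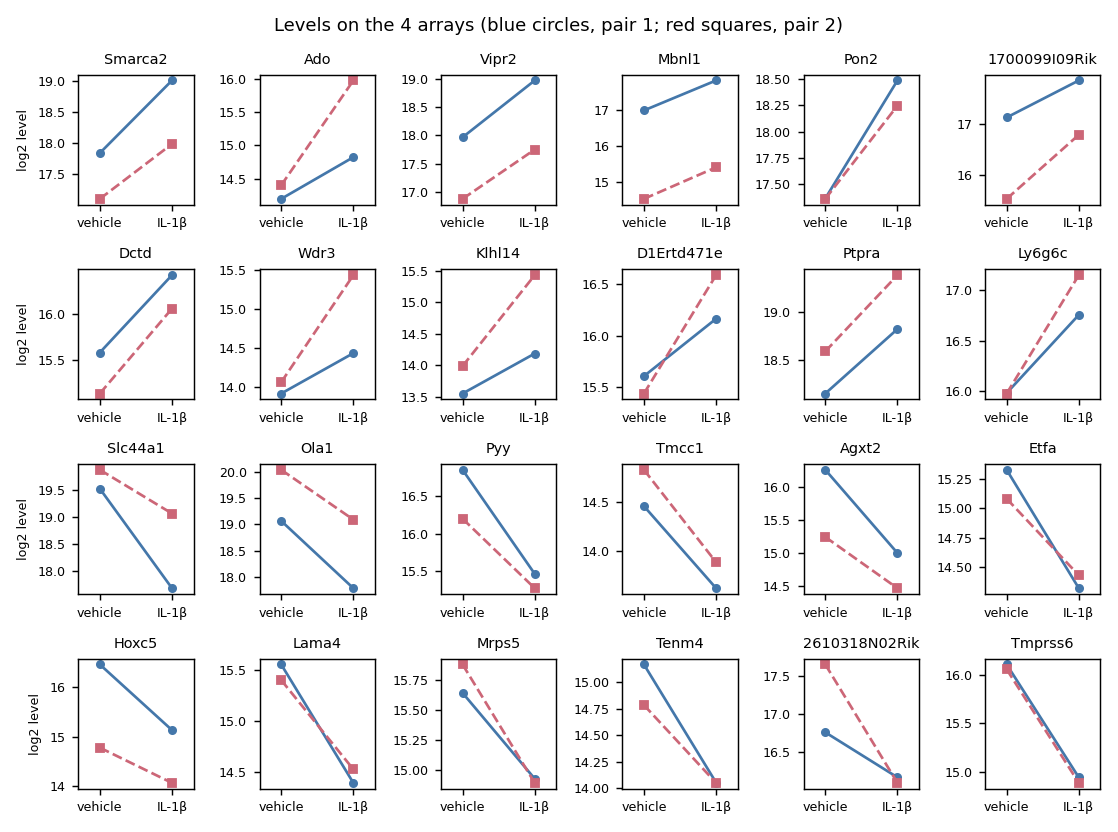
Log2 level of the 24 genes named by the rule on the 4 IL-1R1-/- arrays, vehicle at left and IL-1β at right in each panel, with its own axis. Blue circles joined by solid lines are pair 1 and red squares joined by dashed lines are pair 2. Lines rise in the upper 12 panels and fall in the lower 12 by the rule of choice; in Ado pair 2 is steeper (1.57 against 0.62) and in Slc44a1 pair 1 (-1.83 against -0.81).

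Uhrf1 had a higher mean than any of these, but its p lay outside those the rule names. Uhrf1, a reader of hemimethylated DNA in dividing cells, read 13.90 and 14.26 in pair 1 and 14.22 and 16.83 in pair 2. One treated array carried the difference, 2.61 in pair 2 against 0.36 in pair 1, for a mean of 1.48 ± 0.41 (unadjusted p 0.00439). It was chosen after its values were seen. When pair 1 was left out its difference rested on pair 2 alone, which holds no spread among IL-1R1-/- cultures.

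**Figure D3:**
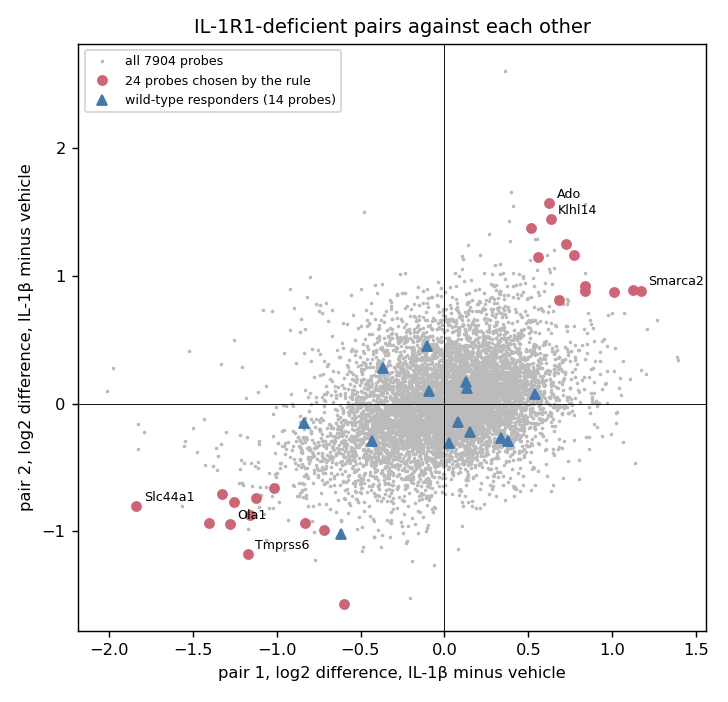
Log2 difference, IL-1β minus vehicle, in pair 1 (horizontal) against pair 2 (vertical) for 7904 probes of IL-1R1-/- glia. Grey points are all probes, red circles the 24 named by the rule and blue triangles the 14 probes of wild-type responders. The cloud is tilted (r = 0.344), the circles sit at its corners by choice, and the triangles lie within it apart from Tnfaip2 at lower left.

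The 2 pairs had much in common across probes. The SD of the differences was 0.362 in pair 1 and 0.341 in pair 2 over 7904 probes. Over the 5713 probes of all 10 arrays it was 0.356 and 0.330, and 0.409, 0.487 and 0.523 in the wild-type pairs. They shared the sign at 4918 of 7904 probes (62.2%), 2494 higher (31.6%) and 2424 lower (30.7%) in both, and correlated at r = 0.344. What they shared included the position of the probes. The r of a probe's difference with that of the next probe on the list was 0.396 in pair 1 and 0.496 in pair 2, at a distance of 24 probes 0.413 and 0.373, and at a distance of 16 such blocks 0.456 and 0.539, as in plates of 16 rows and 24 columns. Spot coordinates were not used, and the layout is an inference from these correlations.

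Averaged over the 23 inferred plates, wells ranged from -0.50 to 0.59 in pair 1 and from -0.34 to 0.54 in pair 2, and the well means of the pairs correlated at r = 0.359. Column 1 was high in both (0.28 and 0.31), and column 16 low (-0.23 and -0.08). After a smooth trend over plate row and column was removed, the correlation of neighbouring probes was 0.0710 and 0.0906 and that of the pairs 0.292, with a shared sign at 57.5% of probes. An unadjusted p under 0.05 was then found for 499 probes (6.31%), and the fit called 0.

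**Figure D4:**
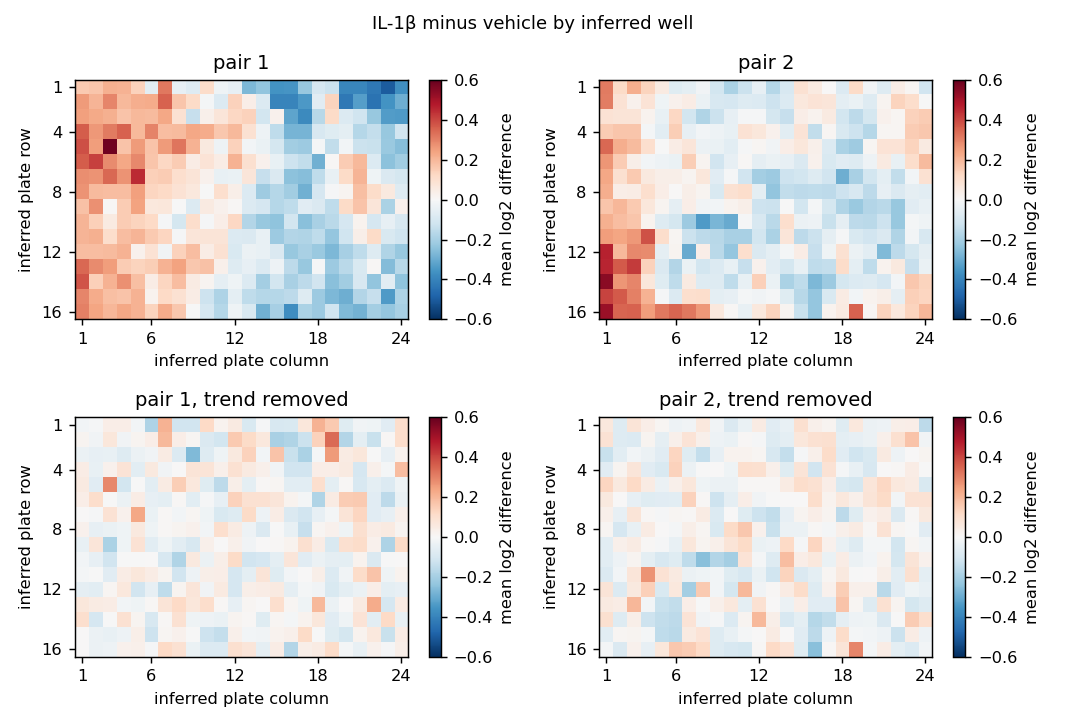
Mean log2 difference, IL-1β minus vehicle, by inferred plate row and column (16 by 24 wells, averaged over 23 plates), in pair 1 and pair 2 of IL-1R1-/- glia, before (upper panels) and after (lower panels) removal of the position trend. Red is higher with IL-1β and blue lower, on a scale from -0.6 to 0.6. Both upper panels are red at left, pair 1 is blue at right, and the lower panels show little structure.

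Some genes were read by 2 or more probes. For 1016 such genes the mean difference at the brightest probe and at the next probe correlated at r = 0.00492, with the same sign in 51.0%, and at r = 0.0691 with the trend removed. Levels of the same probes correlated at r = 0.545. In 101 genes the brightest probe had an unadjusted p under 0.05, and in 48 of them the second probe had the same sign. On the 539 genes with both probes on 10 arrays, r was 0.0665 in IL-1R1-/- and 0.241 in wild-type glia, and 0.121 and 0.485 with the trend removed. Without the listed responders (536 genes left) the wild-type value with the trend removed was 0.267. These are descriptions across genes, which are not replicates.

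The pathway of the receptor itself showed no call. Of 33 listed genes of IL-1 receptor signalling 8 were measured, 0 of 8 had an unadjusted p under 0.05, and their median was 0.05 (all probes 0.01). Below the receptor, Traf6, the ubiquitin ligase of the complex, had 0.04 with pairs of 0.46 and -0.37, and Map3k7, the kinase TAK1 that it activates, 0.06. Mapk8, the kinase JNK1, was lowest at -0.21 ± 0.20 and Peli1, a ubiquitin ligase of the same complex, highest at 0.17 ± 0.22. Mapk9 had 0.14, Mapkapk2 -0.04 and Casp1, the protease that matures IL-1β, -0.01. In every list named from here on, 0 members were called over all probes (0% of 7904), and members are counted at their brightest probe. Unadjusted, 7.38% of all probes had a p under 0.05, and 47.8% were lower. For list members, 3 values in brackets are the mean, pair 2 alone and the mean with the position trend removed.

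In the NF-κB list 9 were measured with a median of -0.02. Tnfaip2, described above, and Ikbkg, the regulatory subunit NEMO of the kinase (-0.54, -0.59, 0.00), had an unadjusted p under 0.05. Ikbkb, its catalytic partner, had 0.17, Nfkb2 -0.09, Nfkbiz -0.13 and Birc3, an NF-κB-induced ubiquitin ligase, 0.19.

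Of the chemokines 8 were measured, none below an unadjusted p of 0.05, from Ccl12 at -0.49 to Cx3cl1, fractalkine, at 0.32 ± 0.24. Their median was 0.18 but -0.01 in pair 2 and -0.02 with the trend removed. Cytokines and growth factors (6 measured) had a median of 0.14, from Tgfb2 (-0.14) to Gdnf (0.22). Acute phase and complement genes (6 measured) had one of 0.01, from Cfb, complement factor B (-0.17), to A2m (0.13). For prostaglandin and nitric oxide synthesis (5 measured) it was 0.20, and -0.20 with the trend removed, from Ptges3 (-0.20) to Nos3 (0.30). In these 4 lists 0 members had an unadjusted p under 0.05.

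In all, 2 of 16 interferon response genes had an unadjusted p under 0.05, both lower. B2m, the light chain of MHC class I, read 17.44 and 16.80 in pair 1 and 18.13 and 17.28 in pair 2. Its treated arrays were lower in each pair, with a mean of -0.75 ± 0.22, and -0.66 with the trend removed. Irf1, a transcription factor of the interferon response, had -0.61 ± 0.21 (-0.57 in pair 2), and -0.37 with the trend removed. The list's median was 0.14 and 0.00 with the trend removed, with Iigp1 highest at 0.44 ± 0.24.

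Immediate early genes, which answer most stimuli within minutes to hours, gave 1 of 8 with an unadjusted p under 0.05. Fos had -0.51 ± 0.22 (-0.36 in pair 2), and -0.20 with the trend removed. Myc had -0.40 and Ier2, the highest, 0.41 ± 0.21, and the median was 0.07.

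Among abundant housekeeping transcripts, ribosomal proteins had a median of -0.19 (-0.07 in pair 1, -0.32 in pair 2, -0.17 with the trend removed), the lowest of the lists in the mean of both pairs. With the trend removed, prostaglandin and nitric oxide synthesis (-0.20) and astrocyte markers (-0.19) were lower. The ribosomal median was below 0 under each normalization tried. Of 15 measured, 10 were lower in the mean and 9 in both pairs, beside 47.8% and 30.7% of all probes. In this list 3 had an unadjusted p under 0.05, Fau (-0.80, -1.12, -0.83), Rpl23 (-0.80, -0.73, -0.39) and Rpl21 (-0.66, -0.64, -0.65), and Rpl35a was highest at 0.30. Rpl21 read 17.38 and 16.70, then 18.17 and 17.53, lower with IL-1β by nearly the same amount in each pair.

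Translation factors (16 measured, median -0.07) had Eif3d (0.79, 0.94, 0.86) and Eif3m (-0.59, -0.96, -0.32), both subunits of initiation factor 3. Oxidative phosphorylation (28 measured, median -0.08) had 3 with an unadjusted p under 0.05, all lower, Atp5l (-0.59, -0.92, -0.57), Ndufb8 (-0.59, -0.60, -0.47) and Ndufb9 (-0.54, -0.58, -0.17), while the highest was Ndufb10 (0.48, 0.70, 0.14). Of 16 proteasome genes (median 0.02) the extremes were Psmc5 (-0.66, -0.62, -0.35) and Psmd11 (0.40, 0.24, 0.21).

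Stress and metal genes had members on both sides. Of 28 chaperones (median -0.07), Dnajc14 (0.69, 1.02, 0.24) and Hspa4 (0.52, 0.36, 0.17) were higher and Hspa14 (-0.51, -0.23, -0.28) and Dnaja4 (-0.48, -0.41, -0.22) lower at an unadjusted p under 0.05. With the trend removed the p of these 4 was 0.184 to 0.305. Hspb7 had 0.72 ± 0.38. Of 14 genes of metal handling and redox, the list with the highest median but one (0.22, and 0.04 with the trend removed), Slc39a4, a zinc importer, (0.96, 0.65, 0.83), and Txnrd1, thioredoxin reductase (0.52, 0.36, 0.44), were higher. Nqo1, a quinone reductase (-0.75, -1.12, -0.90), and Hmox1, haem oxygenase (-0.52, -0.74, -0.14), were lower at an unadjusted p under 0.05.

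In the TGF-β and BMP list (10 measured, median -0.12) Smad3, a signal transducer (-0.61, -0.42, -0.24), and Tgfbr3, the co-receptor betaglycan (0.58, 0.66, 0.31), had an unadjusted p under 0.05. Cholesterol synthesis (6 measured, median -0.09) ran from Stard4 (-0.50, -0.44, -0.10) to Mvd (0.39, 0.52, 0.16).

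Marker lists of cell types had medians between -0.15 and 0.22. Of 13 astrocyte markers 5 were measured, 4 of them lower in the mean, 2 lower and 0 higher in both pairs, and 5 lower with the trend removed. Their median was -0.15, with Slc1a2, the glutamate transporter GLT-1, at -0.73 ± 0.26 (-1.22 in pair 1, -0.25 in pair 2, -0.31 with the trend removed), and Glul, glutamine synthetase, at 0.01. Microglia and macrophage markers (7 of 16 measured, median 0.12, -0.26 in pair 2) had Ctss, cathepsin S, at -0.75 ± 0.27 (-0.82 with the trend removed), Tyrobp at -0.60 ± 0.26 (-0.70 in pair 2, -0.28 with the trend removed) and Cd14 at 0.38 ± 0.22. Ctss read 17.10 and 16.39, then 17.61 and 16.82, lower with IL-1β in both. Oligodendrocyte lineage markers (4 measured) had a median of -0.13, from Cnp (-0.21) to Pdgfra (0.02), neuronal markers (5 measured) 0.02, from Nefm (-0.70, -0.62, -0.39) to Gad1 (0.47, 0.35, 0.21), endothelial and mural markers (6 measured) -0.01, from Tek (-0.52, -0.40, -0.51) to Eng (0.24), and all had members on either side of 0. Of the meningeal fibroblast markers 4 were measured and 4 were higher in the mean, 3 of them in both pairs, from Col1a1 (0.08) to Fn1 (0.46). Their median was 0.22, and 0.07 with the trend removed, when 2 of the 4 were lower.

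Mean levels of the marker lists on the 4 arrays were 14.67 to 15.38 for astrocytes, 15.25 to 15.50 for microglia and 14.36 to 14.99 for fibroblasts. Such levels include each probe's own brightness and floor, so they do not tell whether a cell type was present, and Gfap, Aqp4, Aif1 and Cx3cr1 were not among the measured probes. In bulk cultures fewer cells of a type and less RNA per cell cannot be told apart.

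**Figure D5:**
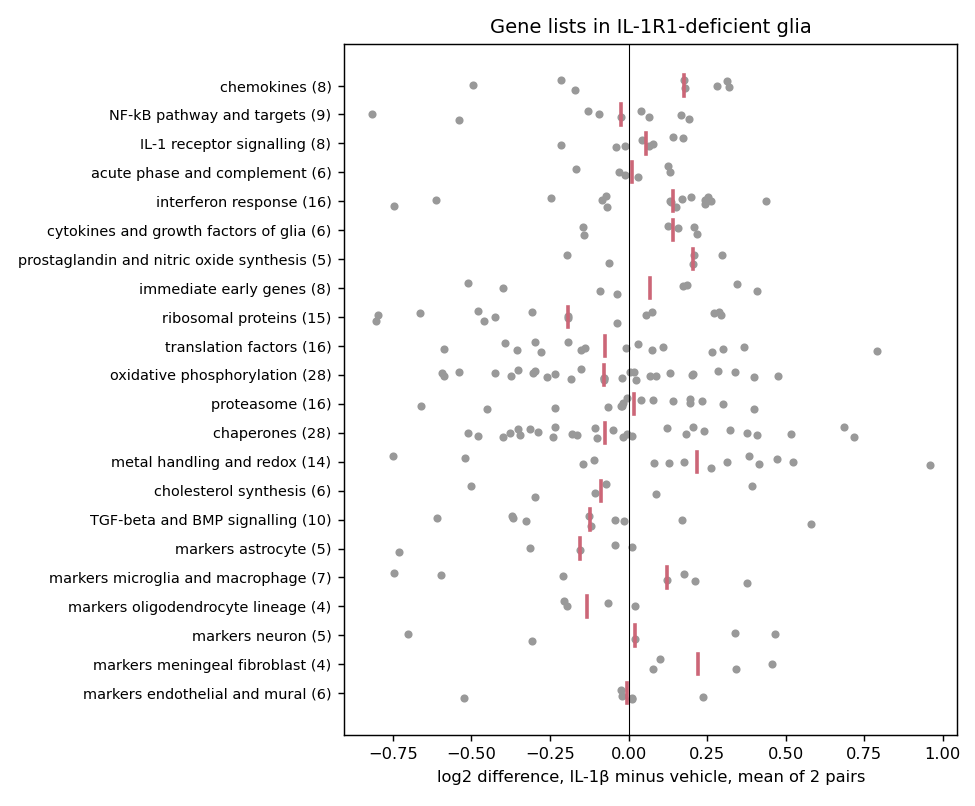
Log2 difference, IL-1β minus vehicle (mean of 2 pairs), in IL-1R1-/- glia for the members of 22 gene lists, with the number of measured genes in brackets. Each grey point is a gene at its brightest probe and each red bar the list's median. Medians lie between -0.19 (ribosomal proteins) and 0.22 (meningeal fibroblast markers), and no point passed the test over all probes.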

How the data were processed

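RNA from primary mixed glial cells was reverse transcribed with 33P-labelled dCTP, per the labels' protocols. The deposited values are linear spot intensities. For scanner, software, background correction and normalization, the steps of the authors were not given in the sources used here. Log2 was taken of the deposited intensities, which were then quantile-normalized between arrays and fitted with limma 3.58.1 (lmFit, eBayes; R 4.3.3), culture being a fixed block and each genotype having its own IL-1β term. P-values are two-sided, adjusted by Benjamini and Hochberg over all probes of a fit, with a threshold of 0.05. The design text states paired treatments; deviations of the 2 arrays of an IL-1R1-/- culture from their group means correlated at r = 0.578, 1 value for 2 cultures.

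Probes with a value on all 4 IL-1R1-/- arrays were tested and gaps in wild-type arrays kept, so a probe missing there rests on fewer arrays. Of 8734 probes 7153 had 1 gene symbol in the platform annotation, 387 several and 1194 none. The rule named, among probes with 1 symbol and the same sign in both pairs, 12 per direction by p, together with 11 wild-type responders, Il1r1 and the extremes of 22 lists. The members, gene lists and rules were chosen with earlier results of these data known. The position trend was smoothed over inferred plate row and column (loess, span 0.2), separately before and after plate 11 of 23, and subtracted. The code was tested on simulated data. Alternatives were other normalizations, moderation, filters, blocks and arrays.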

Additional observations from a re-analysis of the deposited data

Results flagged for a closer look

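For 9 probes the response to IL-1β differed between wild-type and IL-1R1-/- glia by the interaction term of the fit, and these are listed because the same treatment gave different effects in the 2 genotypes. The wild-type minus IL-1R1-/- difference, on the log2 scale, was 3.17 for Ptx3 (adjusted p 0.0332, limma), 2.98 and 2.27 for the 2 probes of Ccl12 (0.00683 and 0.0349), 2.75 for Lcn2 (0.00593) and 2.25 for Steap4 (0.00798). It was 2.15 for Tnfaip2 (0.00798), 1.90 and 1.72 for the 2 probes of Nfkbia (0.0315 and 0.0423) and 1.87 for probe 4650 (0.0218). All 3 wild-type pairs lay above both IL-1R1-/- pairs at each of the 9 probes, but the probes were chosen by a test on these same pairs. With the position trend removed the values were 3.65, 2.85, 2.53, 3.13, 2.05, 1.76, 1.70, 1.64 and 1.47 in the same order. The genes named here had been chosen from earlier results of the wild-type arrays.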

How the results depend on the processing

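The number of probes called in IL-1R1-/- glia, 0 with the main settings, was 22 with no normalization between arrays (all lower), 202 under median centring, 22 under median centring with the trend removed and 336 with the 4 arrays alone. Leaving out 1 replicate gave 0 to 124 calls, 1 without IL-1R1-deficient replicate 1 and 124 without wild-type replicate 2. The other settings gave 0, with 206 probes at an unadjusted p under 0.05 with no replicate block, 820 under cyclic loess, 499 with the trend removed and 484 with no moderation. The probes that differed between genotypes, 9 with the main settings, numbered 0 without the block of culture (362 unadjusted), 240 with no normalization, 264 under median centring, 28 under cyclic loess and 0 with no moderation (591 unadjusted), and 2 to 16 when 1 replicate was left out. The median of the 260 probes called higher in wild-type glia, 0.15 in the fit of 7904 probes and 0.18 in that of probes on all 10 arrays, was 0.10 under median centring, 0.0314 with the trend removed, 0.12 without the 25% dimmest probes, 0.22 with 12 columns and 0.0282 with the 4 arrays alone and the trend removed; leave-one-out values reached down to 0.11. The cause of these changes was not tested. Settings that join trend removal to another change were chosen after seeing the data.

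Of 81 named probes, the 24 that the rule chose kept their direction under each setting in which they were tested; 11 of them have no value on all 10 arrays and so none under that filter. Differences near 0 among the responders and the extremes of lists changed sign in 58 cases, none of them past the threshold. With the 4 arrays fitted alone and the trend removed these were Gbp7 (probe 4948) -0.17, Gbp3 -0.13, Lcn2 -0.0947, Nfkbia (probe 5529) -0.0597, Gbp7 (probe 4657) -0.25, Cfb 0.0225, Tgfb2 0.17, Cx3cl1 -0.0390, A2m -0.0731 and Glul -0.19. With all 12 columns, copies included these were Osmr 0.0448, Nfkbia (probe 5529) -0.0610, Ptx3 0.0267, Gbp7 (probe 4657) -0.0654, Col1a1 -0.0397 and Pdgfra -0.0388. Under cyclic loess these were Osmr 0.0201, Ccl12 (probe 8138) 0.19 and Ptx3 0.32. Under median centring these were Slc38a1 -0.0402, Gbp7 (probe 4948) -0.10, Nfkbia (probe 5529) -0.13, Steap4 -0.0709, Gbp7 (probe 4657) -0.0545, A2m -0.11, Rpl35a -0.0639, Glul -0.33 and Pdgfra -0.31. With no normalization between arrays these were Gbp7 (probe 4948) -0.0456, Nfkbia (probe 5529) -0.0819, Steap4 -0.0181, Gbp7 (probe 4657) -0.00170, A2m -0.0534, Rpl35a -0.0111, Glul -0.28 and Pdgfra -0.26. With the position trend removed these were Gbp7 (probe 4948) -0.18, Gbp3 -0.13, Lcn2 -0.0862, Nfkbia (probe 5529) -0.0602, Gbp7 (probe 4657) -0.24, Cfb 0.0150, Tgfb2 0.16, Cx3cl1 -0.0246, A2m -0.0874 and Glul -0.19. When 1 replicate was left out the signs of these changed, with ranges of Birc3 -0.0157 to 0.39, Ccl12 (probe 8138) -0.23 to 0.15, Gbp3 -0.11 to 0.43, Gbp7 (probe 4657) -0.0903 to 0.0996, Glul -0.0328 to 0.0575, Id4 -0.36 to 0.26, Nfkbia (probe 5529) -0.27 to 0.38, Osmr -0.30 to 0.0301, Pdgfra -0.0833 to 0.13, Ptges3 -0.48 to 0.0788, Ptx3 -0.14 to 0.0771 and Steap4 -0.26 to 0.33. With 2 pairs, 1 of them resting on a column whose label is in doubt, unadjusted 95% intervals reached about 0.5 to either side at the median. A call over all probes needed more than that, since Slc44a1, at -1.32, had an adjusted p of 0.611 (limma). The brightest probes scattered most.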
